A study of Mus musculus with 36 samples.

Results

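The canonical histone genes encode the core histones H2A, H2B, H3 and H4 that package DNA into nucleosomes, and were taken here as all genes whose current mouse symbol begins with H2ac, H2bc, H3c or H4c followed by a digit (formerly Hist1h and Hist2h names). Of 59 such symbols in RefSeq, 57 had an entry in the deposited tables (17 H2A, 16 H2B, 12 H3 and 12 H4 genes), out of 24636 genes measured in the main olfactory epithelium (MOE) and 24629 in the vomeronasal organ (VNO) and olfactory bulb (OB). The choice used gene names only and no measured value. The genes lie in clusters, 47 on chromosome 13 and 10 on chromosome 3.

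The study profiled C57BL/6 mice at 6 months of age by RNA-seq of total RNA depleted of ribosomal RNA, in 36 libraries. Mice were weaned at 3 weeks and kept 4 to a cage, either only with their own sex (sex-separated females, SF, and males, SM) or with both sexes (sex-combined females, CF, and males, CM). In MOE, VNO and OB there were 3 libraries for each of these 4 groups, and each library pooled RNA of 2 mice by the sample labels, so that a replicate is a pool. Because whole tissue was used, fewer cells of a type and less RNA per cell cannot be told apart. By the paper, separated cages were moved to rooms with mice of the same sex only. CF and CM mice shared cages, in which pups were born and were killed soon after birth. Room thus goes with sex between SF and SM and with housing between separated and combined mice, while CF and CM shared it. Mating and birth go with combined housing, and giving birth with CF. In the comparisons they enter, these cannot be told apart from sex or odour exposure.

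Most canonical histone genes are transcribed as DNA is replicated, and their short, intronless mRNAs end in a stem-loop instead of a poly(A) tail. The stem-loop is bound by the protein SLBP and is cut by a complex that includes the U7 snRNP. Depletion of ribosomal RNA, unlike poly(A) selection, keeps such mRNAs in a library. In olfactory tissue the family has a member of special interest, H2bc21 (formerly Hist2h2be), whose H2B protein differs from the other H2B proteins by a few residues and is known from olfactory sensory neurons, which do not divide. The MOE holds olfactory sensory neurons above a dividing basal layer, the VNO holds pheromone-sensing neurons, and the OB is brain tissue that receives their axons.

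The stem-loop was looked for in the GENCODE M21 transcripts of the 57 genes as GGNNCT, directly followed by TNTN and AGNNCC, on the transcript strand, and the forms found are shown because they set apart the family's mRNAs, and H4 from the others. The paired stem bases are in capitals and the loop of 4 bases in lower case. The form in 21 genes of H2A, H2B and H3, the form in 6 genes of H4 and the form in 2 further H4 genes (H4c2 and H4c11) were:
H2A, H2B and H3 form: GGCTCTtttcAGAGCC
H4 form: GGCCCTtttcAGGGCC
H4c2 and H4c11 form: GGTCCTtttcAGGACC
Variants with another loop were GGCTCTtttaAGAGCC in 5 genes (H2bc3, H2bc12, H3c3, H3c6 and H3c7), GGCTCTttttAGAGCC in H2ac20, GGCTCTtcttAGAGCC in H3c8, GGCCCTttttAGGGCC in H4c9 and H4c14, and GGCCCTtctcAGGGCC in H4c1. In all, 39 of the 57 genes held a match (10 of 17 H2A, 9 of 16 H2B, 9 of 12 H3 and 11 of 12 H4 genes), against 201 of 55341 GENCODE genes (0.363%). Of the 18 genes without a match, 15 had records of at most 500 bases, and H2bc21 had no match in a record of 2620 bases. A missing match says only that these letters were not in the record.

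H2bc21 lies on chromosome 3 at chr3:96024995-96027661 (mm9, the build of the deposited loci), next to the H2A gene H2ac20 at chr3:96024336-96024803. In GRCm38 they are transcribed away from each other, H2ac20 on the minus strand (chr3:96220361-96220880) and H2bc21 on the plus strand (chr3:96221119-96223738), with 238 bases between the annotated starts. The RefSeq window of the H2ac20 promoter (250 bases before to 50 after the start, GRCm38.p6 chr3:96220831-96221130, minus strand) covers that gap and is shown because both genes are described below. Capitals mark the octamer ATTTGCAT (found here as its reverse complement) and the CCAAT motif on either strand:
H2ac20 promoter: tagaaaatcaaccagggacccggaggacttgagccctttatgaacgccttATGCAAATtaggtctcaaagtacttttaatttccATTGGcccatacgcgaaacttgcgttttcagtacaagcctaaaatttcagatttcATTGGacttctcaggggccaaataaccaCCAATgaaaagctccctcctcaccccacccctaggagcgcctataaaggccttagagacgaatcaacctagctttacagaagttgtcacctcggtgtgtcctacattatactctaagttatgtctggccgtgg
Searched on both strands, the octamer was in 13 of 53 windows of 52 canonical histone genes (24.5%) and in 1.74% of all 32851 promoter windows of the same length. All 13 were H2A or H2B windows (6 of 17 and 7 of 15), and it was in 0 of 10 H3 and 0 of 11 H4 windows. CCAAT was in 84.9% of the family's windows against 37.4% of all, with 3 of 11 H4 windows as the lowest share, and TATAAA in 56.6% against 13.6%.

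Levels are given as FPKM, the fragments per length of transcript and per number of mapped fragments that the authors obtained with Cufflinks, summed by gene. Many of these genes are near-identical in sequence, so that reads may have been divided among copies. In the GENCODE records a median of 54.6% of the 50-base windows of a gene (range 0% to 100%) also occurred in another gene, and 32 of 57 genes shared at least 50%. H2bc21 shared 0% of its windows, and its coding bases were 83.3% to 88.4% identical to those of 12 other H2B genes, which were 87.8% to 99.5% identical to one another (median 97.4%). For genes with a high share the value of a single gene is uncertain. FPKM was computed on the deposited RefSeq entries, many of which are shorter than the GENCODE records. H4c4, for example, has a record of 1138 bases and a deposited locus of chr13:23673471-23673838 (mm9). Shares within the deposited entries were not computed, so a low share does not show that a gene was measured from unique sequence. H2ac23, H2ac24, H2bc23 and H3c14, with 93.1% to 100% shared, and H3c15 (63.5%) were listed at 0 in all 36 libraries. In all, 10 genes had a mean under 0.5 FPKM in every tissue and were not tested (H2ac1, H2ac18, H2ac19, H2ac23, H2ac24, H2bc1, H2bc23, H3c14, H3c15 and H4c18), which left 47 of 57. Fragments behind each value were estimated from the 95% confidence limits of Cufflinks. They were at least 3 in every library for 35 genes and at least 100 for 6, so that most genes were measured with few fragments.

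The estimated fragments summed to 3016524 to 5902159 per MOE library, 3373400 to 6779893 per VNO library and 3592962 to 6437263 per OB library. The library MOE-CM3 stood apart: it had the lowest sum in MOE, and over 13761 genes its median lay 0.55 below the MOE median on the log2 scale, against 0.15 below to 0.12 above in the other 11 libraries. Tissue markers were as labelled: Cnga2 was at 131 to 259 FPKM in MOE and at most 3.72 in VNO and 0.923 in OB, Trpc2 was at 33.3 to 50.4 in VNO and at most 1.23 in MOE and 0.633 in OB, and Eomes, of bulb projection neurons, was at 10.2 to 13.2 in OB and at most 2.32 in MOE and 0.0924 in VNO.

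H2bc21 was highest in MOE, lower in VNO and lowest in OB, with no overlap between tissues. Its level ranged from 112 to 225 FPKM over the 12 MOE libraries (median 187), from 34.1 to 47.6 in VNO (median 38.9) and from 4.72 to 8.16 in OB (median 6.95 over 170 to 342 estimated fragments). The lowest MOE value was that of MOE-CM3, and the other 11 MOE libraries lay between 148 and 225. On the scale of log2(FPKM + 0.5), MOE exceeded VNO by 2.18 (SE 0.093, adjusted p = 5.0e-19) and OB by 4.71 (SE 0.093, adjusted p = 3.4e-28), and VNO exceeded OB by 2.53 (SE 0.093, adjusted p = 3.7e-21, limma with Benjamini-Hochberg adjustment over 14626 genes). By mean FPKM it ranked 134th of 24636 genes in MOE, 418th in VNO and 4972nd in OB.

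**Figure D1:**
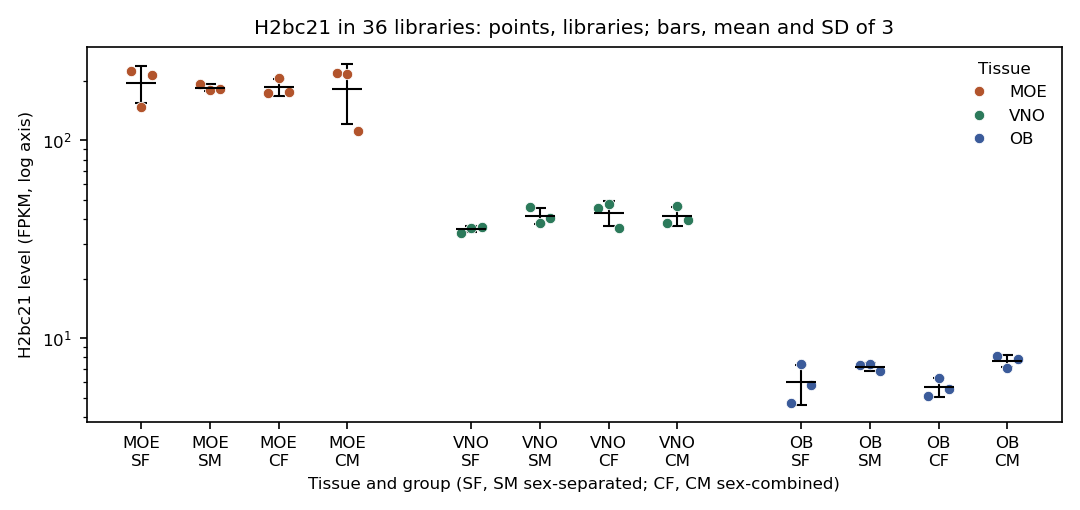
H2bc21 level (FPKM, log axis) in each of the 36 libraries by tissue and group, with points for libraries and bars for the mean and SD of 3 libraries. All 12 MOE libraries (112 to 225) lay above all VNO libraries (34.1 to 47.6), which lay above all OB libraries (4.72 to 8.16).

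Among the H2B genes, H2bc21 made up 32.2% ± 2.73 (SD, n = 12) of the summed FPKM of H2B in MOE, with 19.2% ± 2.27 in VNO and 2.63% ± 0.388 in OB. Omp, the olfactory marker protein of mature sensory neurons, followed the same order with means of 983, 101 and 35.1 FPKM in MOE, VNO and OB. H2bc21 relative to Omp was 19.0% ± 1.37 in MOE and 18.9% ± 2.47 in OB, and 40.2% ± 4.15 in VNO, where the lowest library (33.7%) exceeded the highest of MOE (21.9%) and of OB (22.2%). The neighbour H2ac20, across the shared gap, did not keep step: MOE libraries held 49.2 to 91.5 FPKM of it, VNO libraries 18.6 to 41.1 and OB libraries 22.5 to 35.9. The H2bc21 level was thus 2.45 ± 0.211 times the H2ac20 level in MOE, 1.41 ± 0.266 in VNO and 0.223 ± 0.0359 in OB. H2ac20 was higher in MOE than in VNO (log2 1.37, SE 0.11, adjusted p = 3.3e-12) and OB (log2 1.33, SE 0.11, adjusted p = 3.5e-12, limma), and the difference of VNO from OB was -0.03 (adjusted p = 0.79).

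Setting H2bc21 apart, the canonical histone genes had the lowest levels in VNO. Their summed FPKM was 1907 ± 312 in MOE (range 1163 to 2234), 817 ± 143 in VNO (612 to 1047) and 1870 ± 247 in OB (1431 to 2152). Every VNO library lay below every MOE and every OB library, while MOE and OB overlapped and their means differed by less than their SD. The lowest MOE sum was again that of MOE-CM3. By the RNA integrity numbers in the paper, every VNO sample lay below every MOE sample, and every MOE sample below every OB sample. RNA integrity thus cannot be told apart from tissue in these comparisons. As estimated fragments per 1000000 of the library, which gives short transcripts less weight, the sums were 1390 ± 170 in MOE, 686 ± 67.8 in VNO and 1347 ± 107 in OB, an alternative chosen after seeing the data.

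The families differed in how MOE and OB compared. In the order MOE, VNO and OB, the H2A sum was 180 ± 32.9, 66.1 ± 11.5 and 105 ± 14 FPKM, and the H2B sum without H2bc21 was 393 ± 61.2, 173 ± 27.6 and 246 ± 29.3. The H3 sum was 168 ± 37.3, 74.1 ± 13.9 and 147 ± 22.0, and the H4 sum 1167 ± 193, 504 ± 93.9 and 1372 ± 187. The ratio of MOE to OB, from mean log2 sums, was thus 1.70 for H2A, 1.59 for H2B, 1.12 for H3 and 0.845 for H4. H4 genes made up 61.2% ± 1.77 of the summed FPKM in MOE and 61.6% ± 1.84 in VNO but 73.4% ± 0.890 in OB, where every library (71.6% to 74.9%) lay above every other (at most 65.1%). Since FPKM is per length, the large H4 share is not a share of fragments.

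**Figure D2:**
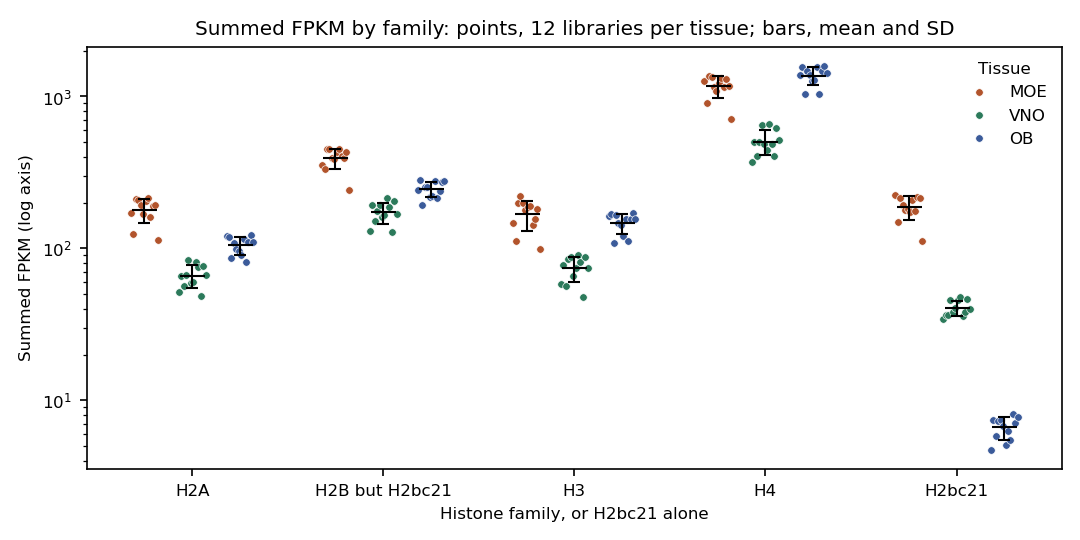
Summed FPKM (log axis) of each histone family and of H2bc21 alone, by library, with 12 points per tissue and bars for mean and SD. Each family sum was lowest in VNO, while H2bc21 fell from 187 in MOE to 40.5 in VNO and 6.62 in OB.

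The genes with the highest mean were the same 3 H4 genes in every tissue. H4c4 was at 192 to 419 FPKM in MOE, 122 to 220 in VNO and 301 to 464 in OB, and ranked 86th, 101st and 55th of all genes. H4c3 was at 196 to 356, 80.2 to 129 and 208 to 343 FPKM, and H4c8 at 170 to 324, 79.6 to 144 and 222 to 345 FPKM. In the GENCODE records of these genes 10.2%, 19.6% and 45.8% of windows were shared, but those records are longer than the deposited loci. H2bc21 had rank 4 in MOE and rank 5 in VNO, and was not among the 6 highest in OB, where H4c12 (83.7 ± 13.0 FPKM), H2bc18 (74.5 ± 7.97) and H4c6 (69.6 ± 8.32) followed.

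Between MOE and VNO, all 47 genes tested were higher in MOE at an adjusted p under 0.05 in limma, against 82.6% of all 14626 genes called in either direction with 48.6% called higher and 34% lower in MOE. The median log2 difference of the 47 was 1.18, against 0.15 over all genes. H2bc21 had the largest difference, followed by H3c8 (log2 1.73, SE 0.17), H2ac11 (1.64), H3c2 (1.63, SE 0.18), H2bc3 (1.58, SE 0.11) and H4c3 (1.57, SE 0.11). H3c8 was at 3.38 to 13.2 FPKM in MOE and 1.15 to 2.96 in VNO, and H2bc3 at 25.9 to 52.0 and 9.97 to 17.1, both without overlap. The smallest differences were those of H2bc6 (0.39, 21.7 to 56.4 against 20.5 to 42.1 FPKM) and H4c14 (0.49, 32.5 to 62.7 against 25.0 to 41.7 FPKM), both with overlap. By family the medians were 1.36 for H2A, 1.21 for H2B without H2bc21, 1.10 for H3 and 1.04 for H4. Without MOE-CM3 the 47 calls stood, with a median of 1.23. H2bc22, with a VNO mean of 0.412 FPKM, passed the filter of 0.5 only through MOE and OB. The filter thus in part set its direction against VNO. Without a filter, H2ac19 was lower in MOE than in VNO.

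Between MOE and OB the family split: 25 of the 47 genes were higher and 11 lower in MOE, with a background of 85.1% of all genes called (45.7% higher and 39.3% lower), and a median log2 difference of 0.46 against 0.07 over all genes. None of the 11 H4 genes was called higher in MOE and 6 were called lower, whereas 11 of 13 H2B genes other than H2bc21 and 8 of 12 H2A genes were called higher. Of 10 H3 genes, 5 were called higher and 3 lower. Without MOE-CM3 the counts were again 25 and 11. Of the genes called higher in MOE, H2ac10 and H2ac12 had an OB mean under 0.5 FPKM and passed the filter only through MOE and VNO.

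The H3 genes lay on both sides of 0. H3c2 was at 8.78 to 16.2 FPKM in MOE (median 13.8) and 0.268 to 1.47 in OB (median 0.974, from 1 to 5 estimated fragments), a log2 difference of 3.32 (SE 0.18, adjusted p = 7.8e-17, limma). H3c3 was at 6.50 to 16.7 and 0.248 to 2.28 FPKM (log2 2.69, SE 0.14, adjusted p = 5.6e-17), and H3c8 at 3.38 to 13.2 and 0.241 to 1.34 (log2 2.65, SE 0.17, adjusted p = 4.2e-15). In OB, 4, 1 and 4 of 12 libraries had fewer than 3 estimated fragments for these genes. In the opposite direction, H3c4 was at 3.79 to 14 FPKM in MOE and 15 to 24.6 in OB, again without overlap (log2 -1.07). H3c6, by contrast, had mean levels of 56.4 and 55.7 FPKM and was not called (adjusted p = 0.98).

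Among H2A and H2B genes, H2ac10 was at 2.99 to 7.94 FPKM in MOE and at most 1.19 in OB, where 2 libraries were listed at 0 (log2 2.65, SE 0.15, adjusted p = 3.8e-16, limma), and H2bc9 at 4.24 to 11.9 and 0.817 to 2.19 FPKM (log2 2.03, SE 0.13, adjusted p = 9.7e-15). H2bc13 and H2bc11 followed with log2 differences of 1.82 (SE 0.14) and 1.22 (SE 0.10). The OB mean of H2ac10 (0.420 FPKM) was under the filter of 0.5, as was that of H2ac12 (0.404). Both genes were thus tested only through MOE and VNO, and the filter in part set their direction against OB. More abundant H2B genes differed less, with 0.58 for H2bc18 (113 and 74.5 FPKM) and 0.63 for H2bc4 (82.4 and 53.0). The 2 H2A genes called lower in MOE were H2ac21 (9.73 against 14.8 FPKM, log2 -0.59) and H2ac7 (3.03 against 4.41, log2 -0.66).

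Of the H4 genes, H4c9 differed most. It was at 3.34 to 8.26 FPKM in MOE (median 5.69) and 24.3 to 41.8 in OB (median 33.7), without overlap (log2 -2.44, SE 0.13, adjusted p = 9.7e-17, limma). H4c12 was at 20.4 to 43.7 and 61.8 to 99.3 FPKM (log2 -1.26, SE 0.14, adjusted p = 9.7e-10). The 3 most abundant H4 genes were not called, with log2 differences of -0.23 for H4c4, -0.17 for H4c8 and 0.03 for H4c3. H4c9 (28.9% of windows shared) and H4c12 (71.5%) differ in how much sequence they share, and the part of read division among H4 copies was not tested.

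**Figure D3:**
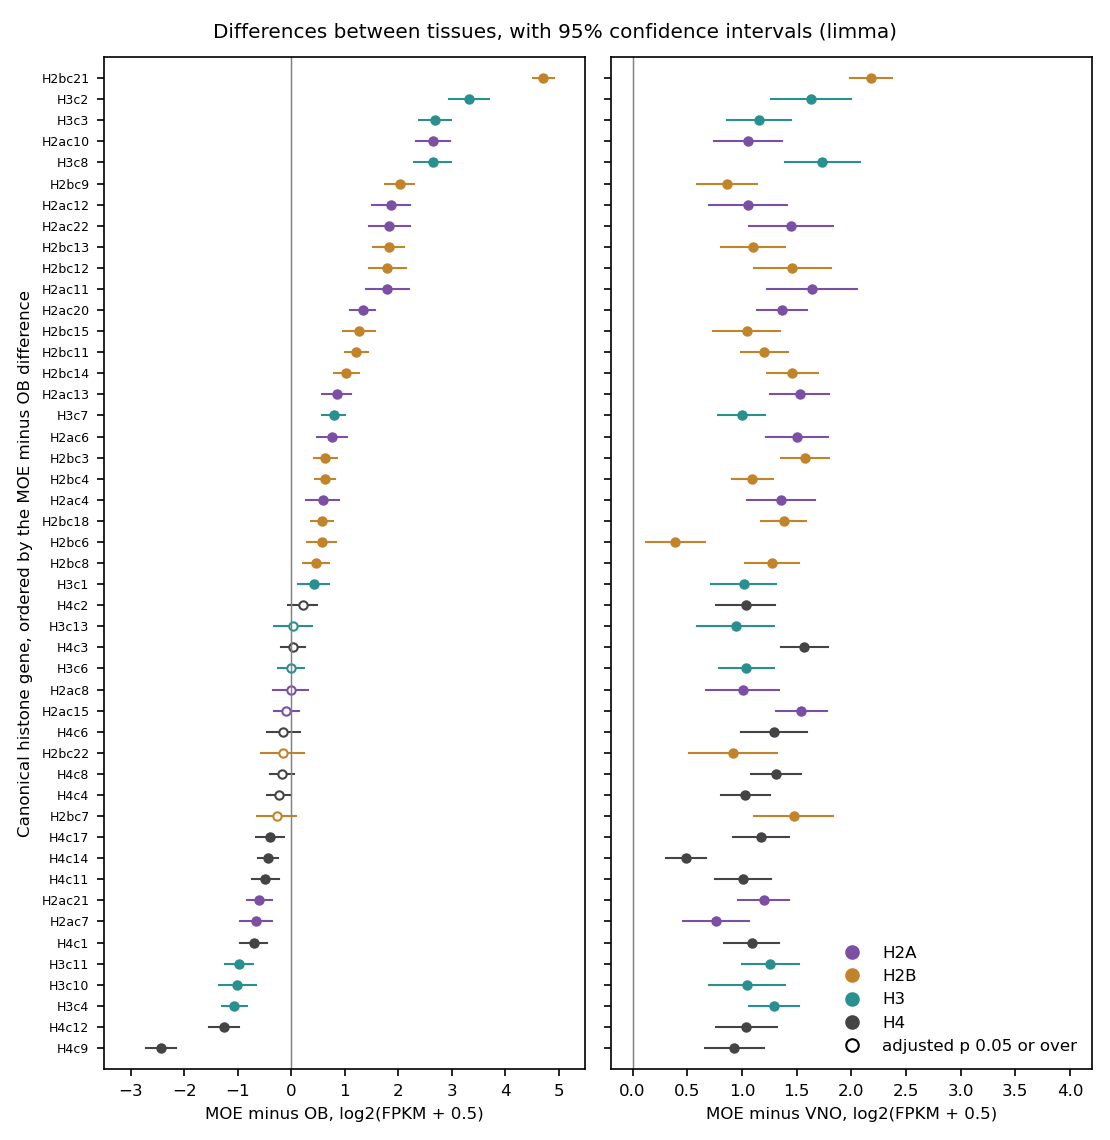
Difference of MOE from OB (left) and from VNO (right) on the log2(FPKM + 0.5) scale for the 47 canonical histone genes tested, with 95% confidence intervals from limma and open points where the adjusted p was 0.05 or over. All 47 were higher in MOE than in VNO, while against OB the genes ran from -2.44 (H4c9) to 4.71 (H2bc21), with H4 genes at the lower end.

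Between VNO and OB, 8 of the 47 genes were higher and 31 lower in VNO (background 85.8% called, 37.8% higher and 48% lower), with a median log2 difference of -0.81 against -0.12 over all genes. Under upper quartile scaling the counts were 14 and 28, with a median of -0.47 against 0.13 over all genes. All 11 H4 genes were lower in VNO, led by H4c9 (2.77 against 32.5 mean FPKM, log2 -3.37, SE 0.13, adjusted p = 2.3e-20) and H4c12 (17.3 against 83.7, log2 -2.29, SE 0.14, adjusted p = 7.9e-16, limma). Of H3 genes, H3c4 (log2 -2.36, SE 0.11) and H3c11 (-2.23, SE 0.13) were among the lowest. The 8 genes that were higher in VNO, H2ac10, H2ac12, H2bc9, H2bc13, H2bc21, H3c2, H3c3 and H3c8, were also higher in MOE than in VNO, so that their levels ran in the order MOE, VNO, OB. A further 11 genes, of which 6 were H4, ran in the order OB, MOE, VNO. The comparisons share libraries, so the 3 sets of calls are not independent. H2ac10 and H2ac12 (OB means 0.420 and 0.404 FPKM) passed the filter of 0.5 only through MOE and VNO. H2bc22 (VNO mean 0.412) passed only through MOE and OB.

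Sequence features that the choice of genes did not use were set beside the differences. In the comparison of MOE with VNO, all genes of both sharing classes were called higher, against 48.6% of all genes tested. The median was 1.13 for 22 genes with under 50% of their GENCODE windows shared and 1.19 for 24 genes with more. For MOE against OB these medians were 0.23 (11 higher and 6 lower) and 0.58 (13 higher and 5 lower), where 45.7% of all genes were called higher and 39.3% lower. Of the 11 genes with the octamer in their promoter window, 10 were called higher in MOE than in OB and 0 lower, with a median of 0.64, while of 13 further H2A or H2B genes without it 8 were higher and 2 lower, with a median of 1.22. Against VNO the order was the other way, with medians of 1.36 and 1.20. Genes whose record goes on for at least 100 bases after the stem-loop had a median of -0.01 between MOE and OB (5 higher and 5 lower of 14), and genes whose record ends sooner a median of 0.61 (11 higher and 2 lower of 18). Of the tested H4 genes, 6 were in the first class and 4 in the second, and no test was made of these classes.

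Genes of cell division were followed because the canonical histones are made in S phase. Summed FPKM of 15 genes of G2 and mitosis was 8.06 to 17.1 in MOE, 6.29 to 9.14 in VNO and 1.22 to 2.35 in OB. OB lay below both. MOE and VNO overlapped only through the CM group of MOE, which includes MOE-CM3 and held the lowest MOE value (8.06). The lowest values in SF, SM and CF of MOE were 11.7, 13.3 and 13.1, above every VNO library. Of 9 tested, 8 were called higher and 0 lower in MOE than in VNO (all genes 48.6% and 34%). All 9 were called higher in MOE than in OB and in VNO than in OB. With so low a sum in OB, most of these 9 passed the filter of 0.5 FPKM, a mean over 36 libraries, only through MOE and VNO. Their direction against OB was thus largely set by the filter. Top2a, which untangles replicated chromosomes, was at 1.95 to 4.05 FPKM in MOE and at most 1.63 in VNO and 0.214 in OB. Mki67, a proliferation marker, was at 0.915 to 1.55 in MOE and at most 0.919 and 0.123. For 18 genes of S phase the sums were closer, at 29.9 ± 4.01, 24.1 ± 1.98 and 23.7 ± 1.66, and VNO and OB overlapped (20.7 to 26.5 and 21 to 26.2). Of 9 tested, 5 were called higher and 2 lower in MOE than in VNO, 7 higher and 0 lower in MOE than in OB, and 5 higher and 3 lower in VNO than in OB. The shares of all genes called higher and lower were 48.6% and 34%, 45.7% and 39.3%, and 37.8% and 48% in this order. The 3 lower in VNO were the replication clamp Pcna (log2 -0.47), the helicase subunit Mcm7 (-0.46) and the reductase subunit Rrm1 (-0.35). In the summed levels, G2 and mitosis genes were thus lowest in OB, S phase genes overlapped between VNO and OB, and the histone genes without H2bc21 were lowest in VNO. Whether dividing cells supply these mRNAs was not tested.

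Genes for the processing of histone mRNA had a median log2 difference of 0.33 between MOE and VNO, against 1.18 for the canonical histone genes. Slbp, the stem-loop binding protein, was higher in MOE than in VNO by a log2 difference of 0.64 (adjusted p = 2.3e-07) and than in OB by 0.62 (adjusted p = 3.9e-07, limma), with -0.02 between VNO and OB (adjusted p = 0.81). Of 15 processing genes, 14 were tested, and 11 were higher and 1 lower in MOE than in VNO, 7 higher and 4 lower in MOE than in OB, and 1 higher and 9 lower in VNO than in OB. Among all genes tested, 48.6% were called higher and 34% lower in MOE than in VNO. Between MOE and OB these shares were 45.7% and 39.3%, and between VNO and OB 37.8% and 48%. Cpsf2 (log2 0.95 between MOE and VNO) and Casp8ap2 (0.87), also called FLASH and part of the machinery, led the first comparison. Cstf2, a cleavage factor, was lowest in VNO (0.86 for MOE against VNO and -1.18 for VNO against OB), and Sympk was lower in MOE than in OB (-0.64). Of 12 histone chaperones, 10 were tested, and 9 were higher and 0 lower in MOE than in VNO, led by Nasp (log2 1.27), a carrier of H3 and H4, while 4 were higher and 4 lower in MOE than in OB, and 1 was higher and 9 lower in VNO than in OB, the last led by Nap1l1 (-1.01).

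Linker histone genes of the H1 family, of which H1f1 to H1f5 are also made with replication, had summed FPKM of 357 ± 57.7 in MOE, against 204 ± 26.9 in VNO and 226 ± 23.6 in OB. Of 7 genes, 5 were higher and 1 lower in MOE than in VNO (all genes 48.6% and 34%), with a median of 1.02. H1f4 was at 73.1 to 158 FPKM in MOE and at most 80.3 in VNO and 63.7 in OB (log2 1.02 and 1.26), and H1f1 was higher in MOE than in VNO (1.47) and lower than in OB (-0.26). H1f10 was the gene lower in MOE than in VNO (-0.66), and it was lower still against OB (-2.51). H1f0, the linker histone of resting cells, was not called between any tissues (log2 -0.03, -0.03 and 0.00). Of 10 replication-independent core variants measured, 9 were tested, and all 9 were higher in MOE than in VNO with a median of 0.51, including H3f3b (0.90), Macroh2a1 (0.71) and the centromere variant Cenpa (0.50). Against OB, 6 were higher and 3 lower in MOE (all genes 45.7% and 39.3%). Between VNO and OB 4 were higher and 4 lower in VNO (all genes 37.8% and 48%).

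Markers of other cell types moved with the tissues, and their part in the differences above was not tested. As background for the counts below, 48.6% of all genes were called higher and 34% lower in MOE than in VNO. Against OB the shares were 45.7% and 39.3%. The 10 markers of mature olfactory neurons summed to 1639 to 2917 FPKM in MOE, 128 to 199 in VNO and 95.2 to 136 in OB, with 10 of 10 higher in MOE than in either. The 7 markers of immature neurons summed to 66.3 to 122, 54.4 to 68.6 and 92.6 to 127, with 5 higher and 2 lower in MOE than in VNO. The 6 vomeronasal markers summed to 24.7 to 35.3, 146 to 177 and 81.9 to 113, and 6 of 6 were lower in MOE than in VNO. The 8 basal and progenitor markers summed to 30.7 to 47.0, 36.6 to 66.0 and 13.4 to 17.6, with Krt5 at most 0.0237 in OB. In MOE against OB, 4 of 6 tested were higher and 1 lower.
The 10 markers of bulb neurons summed to 42.3 to 74.4, 159 to 213 and 402 to 513, and the 6 of neuroblasts to 89.7 to 158, 141 to 196 and 157 to 191. Of these, 7 of 8 and 4 of 6 were lower in MOE than in OB. Markers of marrow, blood and bone were present too: 9 myeloid genes summed to 146 to 353, 1068 to 1856 and 0.887 to 27.5, although Ltf, which glands also make, gave 1424 of the VNO mean of 1477, and the precursor genes Mpo and Elane were at most 1.10 and 0.986. Of 6 myeloid genes tested, 6 were higher in MOE than in OB. The 7 erythroid genes measured summed to 15.7 to 298, 149 to 547 and 32.3 to 169, and 2 of 5 tested were higher in MOE than in OB. The 6 plasma and B cell genes measured summed to 2.26 to 12.2, 4.14 to 45.4 and 0.154 to 0.608, with 2 of 2 higher in MOE than in OB. With so low a sum in OB, these 2 passed the filter of 0.5 FPKM, a mean over 36 libraries, only through MOE and VNO. Their direction against OB was thus in part set by the filter. The 6 bone and cartilage genes summed to 79.0 to 154, 364 to 498 and 7.53 to 11.9, with 5 of 6 higher in MOE than in OB. Myeloid, bone and other listed genes that were low in OB could pass the filter in the same way. In MOE against VNO, 3 myeloid genes were higher and 1 lower, 1 erythroid gene higher and 3 lower, 0 plasma and B cell genes higher and 1 lower, and 2 bone and cartilage genes higher and 4 lower.

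The canonical histone genes varied together between libraries of the same tissue. Without H2bc21, 45 of 46 genes lay below the MOE median in MOE-CM3, where the median deviation was -0.73 on the log2 scale, and 43 of 46 in MOE-SF2 (-0.46). In these 2 libraries the median over all genes was also low, at -0.55 and -0.15, and so was that of 26 other short genes, with a span of 300 to 700 bases, at -0.39 and -0.22. In VNO, 44 of 45 genes lay below the median in VNO-CM1 (-0.46), where the median over all genes was -0.01, that of 25 other short genes -0.03 and that of the genes of cell division -0.06. In OB, 41 of 44 genes were low in OB-SF3 (-0.38) and 40 of 44 in OB-CF3 (-0.32), with all genes at -0.02 and -0.04 and 22 other short genes at -0.19 and -0.10. The highest medians were 0.22 in MOE-SM1, 0.26 in VNO-CF2 and 0.20 in OB-CM2. By the paper's alignment statistics, MOE-CM3 had the lowest share of concordant read pairs in MOE, and OB-SF3 and OB-CF3 the lowest in OB. VNO-CM1 had the lowest in VNO after VNO-SF1, where the histone median was also low (-0.35). MOE-SF2 was among the highest in MOE by this share and had the largest mean insert size of all libraries. Whether alignment or insert size has a part in these deviations was not tested, nor what else sets these libraries apart.

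**Figure D4:**
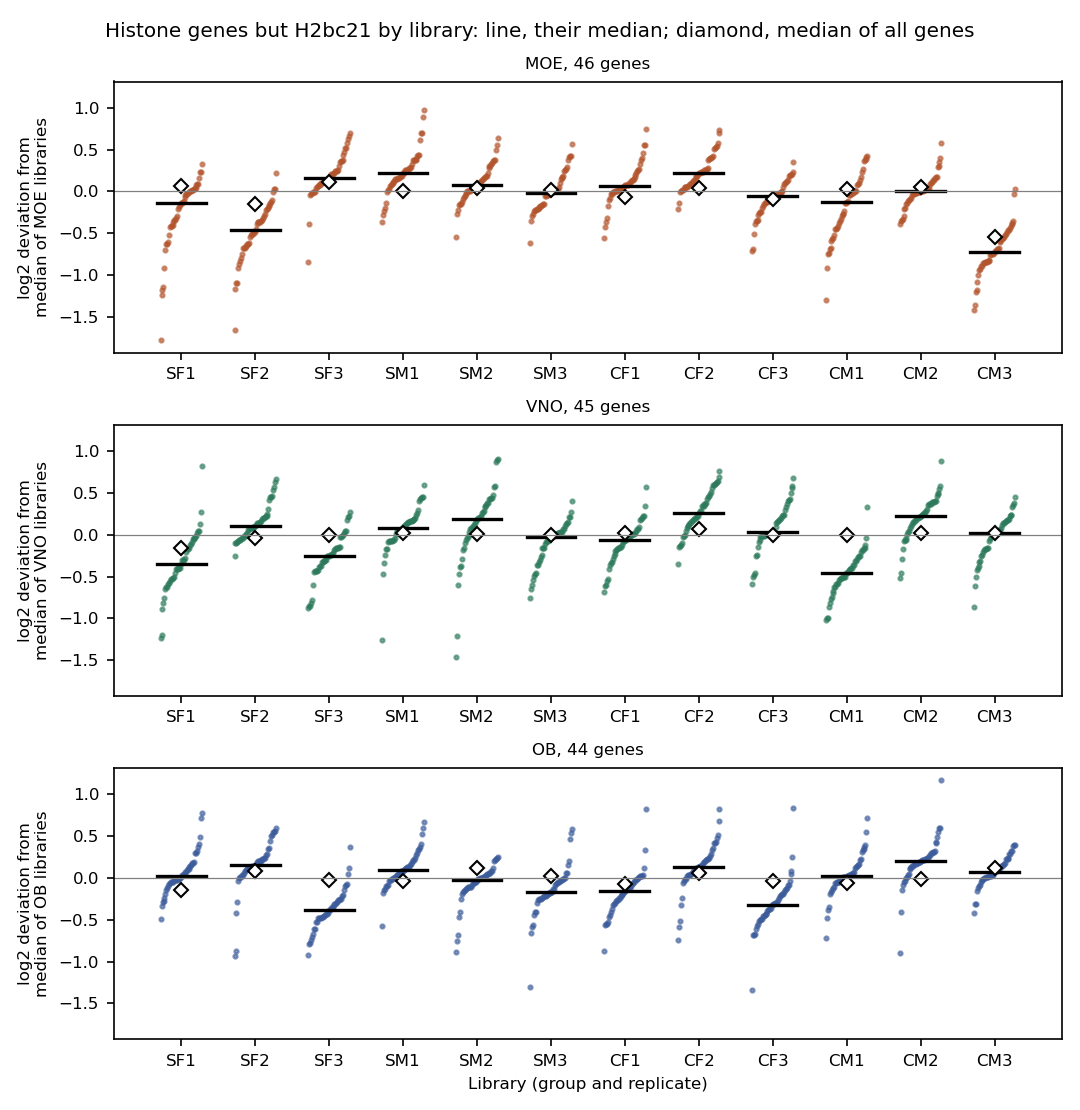
Deviation of each canonical histone gene but H2bc21 from its median over the 12 libraries of a tissue, on the log2(FPKM + 0.5) scale, by library, with black lines for their median and diamonds for the median over all genes. In VNO-CM1, OB-SF3 and OB-CF3 the histone genes lay below 0 (medians -0.46, -0.38 and -0.32) while the median of all genes was near 0.

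Females and males, and the housings, were then compared within each tissue, with room, mating and birth confounded as described above. H2bc21 was called by limma in none of the 15 comparisons (12 of pairs of groups and 3 of the interaction of sex and housing). In MOE its level was 225, 148 and 214 FPKM in SF, 193, 180 and 181 in SM, 174, 207 and 177 in CF, and 219, 215 and 112 in CM, with overlapping groups. The log2 difference was 0.06 between SF and SM (95% interval -0.52 to 0.64), 0.09 between CF and CM (-0.49 to 0.67), 0.05 between SF and CF (-0.52 to 0.63) and 0.08 between SM and CM (-0.49 to 0.66). Relative to Omp it was 19.7% ± 0.543 in SF, 17.9% ± 0.269 in SM, 18.5% ± 0.880 in CF and 20.0% ± 2.21 in CM (n = 3 each), with SF and SM not overlapping, a ratio that was not tested.

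In VNO, H2bc21 was at 34.1, 36.2 and 36.4 FPKM in SF, 46.1, 38.2 and 40.7 in SM, 45.7, 47.6 and 35.9 in CF, and 38.2, 46.6 and 39.7 in CM. The 3 SF libraries were below all SM libraries and overlapped with CF. The largest difference was that of SF from CF, at -0.26 (SE 0.12, unadjusted p = 0.048, adjusted p = 0.45, limma). In OB, it was at 4.72, 7.43 and 5.8 FPKM in SF, 7.33, 7.4 and 6.8 in SM, 5.10, 6.32 and 5.52 in CF, and 8.16, 7.10 and 7.81 in CM. All CF libraries lay below all CM libraries, with a log2 difference of -0.42 (SE 0.13, unadjusted p = 0.0080, adjusted p = 0.78, limma), and Omp was lower there too, at 29.4 ± 1.69 against 38.3 ± 4.28 FPKM. As a share of Omp, H2bc21 was 19.2% ± 1.79 in CF and 20.2% ± 1.70 in CM, with overlap.

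In MOE, 1 of 47 genes, H2ac7, was called lower in SF than in SM (background 0.102% of 13756 genes) and lower in SF than in CF (background 0.0509%), and it was also the only one called for the interaction (background 0.0363%). None was called between CF and CM (background 0.0436%) or between SM and CM (background 0.0654%). H2ac7, an H2A gene with 67.1% of its windows shared, was at 0.573, 0.672 and 1.55 FPKM in SF, 5.48, 4.68 and 2.79 in SM, 5.69, 3.76 and 4.2 in CF, and 0.994, 3.62 and 2.38 in CM. The SF libraries lay below all SM and all CF libraries and overlapped with CM. These values came from 2 to 6 estimated fragments in SF and 14 to 26 in SM, with 1 SF library under the floor of 3.
The log2 difference was -1.77 between SF and SM (SE 0.32, adjusted p = 0.047), -1.86 between SF and CF (SE 0.32, adjusted p = 0.049) and -2.70 for the interaction (SE 0.46, adjusted p = 0.049, limma). Between CF and CM it was 0.94, in the opposite direction (SE 0.32, unadjusted p = 0.010, adjusted p = 1). None of the 3 calls held under all alternatives: with another pseudocount, no filter, another scaling or a library left out, adjusted p-values passed 0.05 in most cases. Leaving out SF1, SF2, SM1 or SM2 ended the call between SF and SM (adjusted p = 0.25 to 0.49, limma), and leaving out SF1, SF2 or any CF library that between SF and CF (0.078 to 0.31). In VNO and OB the gene was not called in any comparison, with 1.12 to 1.67 FPKM in SF of VNO and 4.52 to 4.73 in SF of OB.

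**Figure D5:**
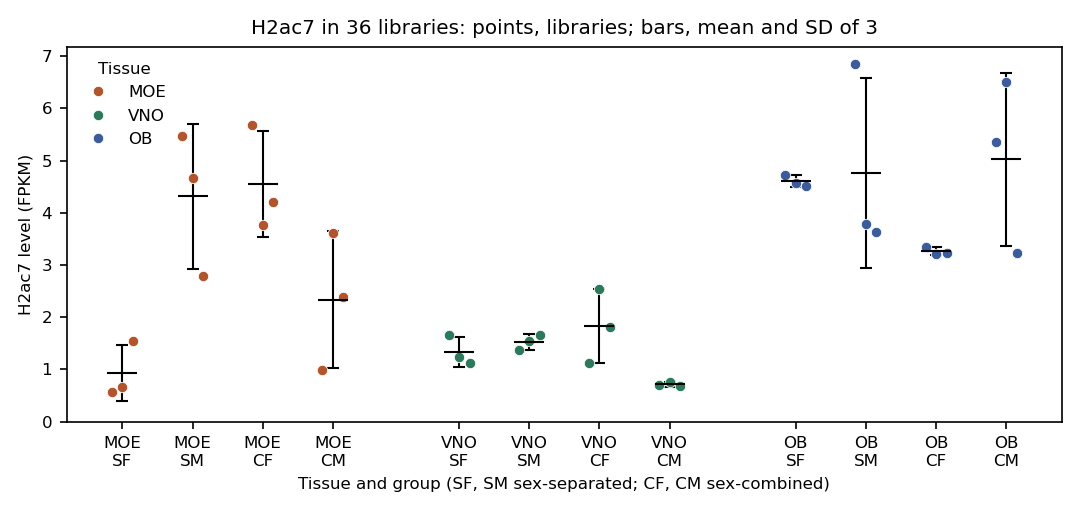
H2ac7 level (FPKM) in each of the 36 libraries by tissue and group, with points for libraries and bars for the mean and SD of 3 libraries. In MOE the 3 SF libraries (0.573 to 1.55) lay below the SM (2.79 to 5.48) and CF (3.76 to 5.69) libraries.

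Counts over the 47 genes in MOE, H2ac7 included, were set beside those of all genes, many of which also differed in 1 direction. Between SF and SM the median of the 47 genes was -0.29 (all genes -0.02), 36 were lower in SF (54.9% of all genes) and 8 had an unadjusted p under 0.05, against 4.16% of all genes. Between CF and CM the median was 0.38 (all genes 0.10), 45 of 47 were higher in CF (82.2% of all genes) and 8 had an unadjusted p under 0.05, against 1.75%. Between SF and CF the median was -0.19 (all genes 0.06; 6 genes and 2.04%), and between SM and CM 0.37 (all genes 0.17; 15 genes and 6.94%). For the interaction, 44 of 47 were negative (70.3% of all genes) with a median of -0.62 (all genes -0.12), and 22 had an unadjusted p under 0.05, against 4.59%.
These values moved with the 2 low libraries named above. Without SF replicate 2 the median between SF and SM was -0.12, with 5 genes, and without CM replicate 3 that between CF and CM was 0.17, with 4 genes. The interaction then had 14 and 15 genes, with backgrounds of 2.88% and 15.2% and medians of -0.44 and -0.44. Genes of 1 library are not independent of one another, and each group had 3 libraries.

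H2bc9 and H2bc13 had the smallest p-values in the CF and CM comparison of MOE. H2bc9 was at 8.85, 11.9 and 9.23 FPKM in CF and 4.56, 5.99 and 4.24 in CM, without overlap (log2 0.95, SE 0.26, unadjusted p = 0.0017, adjusted p = 1). H2bc13 was at 4.92, 8.26 and 6.54 in CF and 3.65, 4.30 and 3.50 in CM, again without overlap (log2 0.69, SE 0.22, unadjusted p = 0.0066, adjusted p = 1, limma). Both also had the smallest p-values between SM and CM, with log2 differences of 0.86 (adjusted p = 0.58) and 0.84 (adjusted p = 0.43).

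In VNO, 0 of 46 genes tested were called in each of the 5 comparisons. The backgrounds were 0.0722% of 13848 genes for SF against SM, 0.0433% for CF against CM, and 0% in the other three. At an unadjusted p under 0.05 there were 2, 3, 6, 2 and 8 genes (SF against SM, CF against CM, SF against CF, SM against CM, interaction), against 8.8%, 3.93%, 11%, 2.32% and 5.26% of all genes. The smallest p-value between CF and CM was that of H2ac7 (1.12, 2.54 and 1.82 against 0.701, 0.758 and 0.680 FPKM, log2 0.89, SE 0.19, unadjusted p = 5.4e-04, adjusted p = 0.39, limma). Between SF and CF it was that of H2ac12 (2.12, 1.52 and 1.22 against 0.613, 0.859 and 0.745 FPKM, log2 0.76, SE 0.21, adjusted p = 0.37). H2ac20, the neighbour of H2bc21, was lower in all SF than in all CF libraries of VNO (18.6, 26.4 and 27.2 against 28.1, 35.2 and 37.4 FPKM, log2 -0.48, SE 0.20, adjusted p = 0.43, limma). The other genes with the smallest p-values were H4c14 (log2 -0.40) and H2ac12 (0.52) between SF and SM, H3c1 (0.61) between CF and CM, H2ac7 (0.74) and H2ac10 (0.74) between SM and CM, and H2ac7 (-1.04) and H3c13 (-1.14) for the interaction.

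In OB, 0 of 45 genes tested were called in each of the 5 comparisons, with backgrounds of 0.0391% of 12794 genes for SF against SM, 0.0469% for CF against CM, 0.00782% for SF against CF, 0% for SM against CM and 0.00782% for the interaction. At an unadjusted p under 0.05 there were 0, 7, 4, 0 and 3 genes in this order, against 4.59%, 5.69%, 2.8%, 3.4% and 4.13% of all genes. Between CF and CM, 40 of 45 genes were lower in CF, with a median of -0.25, against 59.4% of all genes and a median of -0.03. The smallest p-value was that of H2bc11, at 2.69, 2.54 and 2.47 FPKM in CF and 4.35, 3.87 and 3.90 in CM (log2 -0.57, SE 0.18, unadjusted p = 0.0074, adjusted p = 0.78, limma), followed by H2bc21. H2bc11 and H2ac21 were also first for SF against CF (log2 0.44 and 0.33) and for the interaction (0.66 and 0.59), H2bc21 and H2ac21 for SF against SM (-0.26 and 0.26), and H2ac4 and H2ac21 for SM against CM (-0.49 and -0.26). The CF comparison includes OB-CF3, one of the libraries in which the family was low as a whole.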

How the data were processed

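The authors prepared stranded libraries from total RNA after removal of ribosomal RNA, sequenced them in pairs, aligned the pairs to mm9 with TopHat2 2.1.0 and computed FPKM with Cufflinks 2.2.1.0 (versions from the submitters' processing notes). The deposited FPKM values per RefSeq transcript, with confidence limits, are the unit used here. No reads or counts were used.

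Accessions were matched to symbols through RefSeq tables (99.7% of entries) and FPKM was summed by gene. Tissues were compared in 1 limma fit over 36 libraries and 12 groups, and sex and housing in 1 fit per tissue over 12 libraries and 4 groups (limma 3.58.1 in R 4.3.3, with lmFit and the trend option of eBayes). Genes with a mean of at least 0.5 FPKM over the libraries of the fit were tested, so that a gene could pass through 1 tissue or group alone. Values entered as log2(FPKM + 0.5). This scale understates changes of low genes. The 3 tissues came from the same mice by the study's methods, and the fit treats the libraries as separate. Whether same-numbered libraries of different tissues hold the same mice is not given in the sources used here, and a fit with the pool as a block was an alternative. P-values were adjusted over all genes tested by the Benjamini-Hochberg method. The comparison was checked on simulated data, with a log2 change of 1 added to 200 genes in SF. Between SF and SM, 65.5% of these were recovered in MOE (8 false calls), 91.5% in VNO (13) and 95.0% in OB (11). The simulated noise was independent between genes, without shifts of a whole library such as that of MOE-CM3, so the check does not cover those. The labels do not say whether replicates came from separate cages, and p-values measure the spread between pools. The paper and the labels differ in the number of mice per pool. Fragments were estimated by squaring FPKM over the standard error implied by the confidence limits, and cover counting error only. They and the window, stem-loop and promoter counts were computed with Python 3.11.15, numpy 2.4.6 and pandas 2.3.3. Coordinates of the deposited loci are mm9, and those from RefSeq or GENCODE M21 are GRCm38.

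Genes were named by rule: H2bc21 throughout, the 5 highest genes per tissue, the called genes with the smallest p (up to 10) and the 2 largest differences in each direction between tissues, and the called genes or else the 2 smallest p between groups. Of the lists, up to 4 called genes with the largest changes could be named, with Omp, Mki67, Top2a and Slbp always. Others named, including Cnga2, Trpc2, Eomes, H1f0 and Sympk, were chosen after their values were seen. The members and lists were chosen with earlier results of these data known. The lists cover linker histones, core variants, histone mRNA processing, chaperones, S phase, G2 and mitosis, and markers of mature and immature olfactory neurons, vomeronasal neurons, basal cells, bulb neurons, neuroblasts, and myeloid, erythroid, plasma and B, and bone and cartilage cells. Alternatives were pseudocounts of 0.1 and 1, no filter, quantile and upper quartile scaling, a replicate block, fits restricted to the libraries of a comparison, and leaving out each library. Estimated fragments, and sums over genes with under 50% of windows shared, were added after seeing the data, as was the set of other short genes.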

Additional observations from a re-analysis of the deposited data

Results flagged for a closer look

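The female-male difference of H2ac7 in MOE differed between the housings by -2.7 on the log2 scale in the tested interaction: it was -1.77 in separated housing (SF against SM) and 0.94 in combined housing (CF against CM). The estimated fragments were 2 to 6 in the SF libraries.

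In 3 further cases every library of one group lay above those of the other in one tissue and below them in another. The difference between tissues was not tested. Over 12 such pairings of group comparison and tissues, such opposite separations were 4 of 540 among the canonical histone genes (the other was H3c7) and 0.413% among all genes. H2ac7 was lower in SF than in CF in MOE (-1.86) and higher in OB (0.44), a difference of -2.3. H2ac21 was lower in SF than in CF in MOE (7.59, 7.99 and 9.38 against 12.8, 10.1 and 10.4 FPKM, log2 -0.39) and higher in OB (17.4, 15.6 and 15.7 against 11.7, 15.4 and 11.6 FPKM, log2 0.33), a difference of -0.721. H3c8 was higher in CF than in CM in VNO (2.21, 2.39 and 1.90 against 1.39, 1.35 and 1.52 FPKM, log2 0.47) and lower in OB (0.674, 0.815 and 0.497 against 1.24, 1.34 and 0.926 FPKM, log2 -0.52), a difference of 0.992, with at most 5 estimated fragments per OB library. Of these single-tissue differences only that of H2ac7 in MOE passed the threshold.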

How the results depend on the processing

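Between tissues, the direction and the side of the threshold of H2bc21 held under every alternative run, and the counts of genes called stayed within 1.5 times. Upper quartile and quantile scaling moved the split between VNO and OB from 8 higher and 31 lower to 14 and 28, and to 10 and 29. Without a filter, H2ac19 was added as the one gene lower in MOE than in VNO. In estimated fragments relative to the library total, chosen after seeing the data, the log2 difference of sums was 1.14 for H2A between MOE and VNO (1.44 in FPKM) and -0.69 for H3 between VNO and OB (-0.999). Sums over genes with under 50% of windows shared in the GENCODE records, also added later, kept their differences within 1 SD. The calls of H2ac7 in MOE were lost as follows: the count was 0 between SF and SM and between SF and CF with a pseudocount of 1, no filter, quantile or upper quartile scaling and only the libraries compared, and 0 for the interaction with a pseudocount of 0.1, no filter and either scaling. With a library left out, the counts ranged from 0 to 1 between SF and SM and between SF and CF, and from 0 to 3 for the interaction, where without SF replicate 3 H2bc9 and H2bc13 were added and without SF1, SF2, SM1, SM2, CF1, CF3, CM1 or CM3 the call was lost. Adjusted p for H2ac7 reached 0.49 between SF and SM (without SM replicate 1), 0.41 between SF and CF and 0.44 for the interaction (without a filter). In VNO, without CF replicate 1 H2ac7 was called between CF and CM (0 to 1). Cause was not tested.

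H2bc21 differences near 0, none of them called, changed sign. In MOE, CF and CM differed by 0.09, and by -0.11 under quantile and -0.0254 under upper quartile scaling (-0.23 to 0.25 with a library left out). SF and CF differed by 0.05, and by -0.0308 under upper quartile scaling (-0.0579 to 0.24), SM and CM by 0.08, and by -0.22 and -0.12 under both scalings (-0.23 to 0.25), SF and SM by 0.06 (-0.0518 to 0.25), and the interaction was -0.03, and 0.27 and 0.0855 under both scalings (-0.19 to 0.29). In VNO the ranges with a library left out were -0.0294 to 0.17 between CF and CM and -0.0673 to 0.0928 between SM and CM, and in OB -0.10 to 0.21 between SF and CF and -0.0024 to 0.30 for the interaction.

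With the replicate block the count of MOE genes called for the interaction was again 1, no call of a named gene changed, and with the pool as a block across tissues the count between VNO and OB was 40. Correlations of deviations between libraries of the same number were over 0.1 in 3 of 18 pairs in MOE, 8 of 18 in VNO (median 0.079, against -0.043 and 4 of 36 for different numbers) and 2 of 18 in OB. Across tissues, within a group of sex and housing, it was over 0.1 in 5 of 36 pairs of the same number and 11 of 72 of different numbers. Not every pair passed 0.1, and the main fits did not pair libraries by number. Such a rule cannot exclude that the numbers pair them. Depth limits most single genes: under 100 fragments in some library for all but 6.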

Other observations

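A few core histone genes carry other symbols and were outside the family as chosen here. Of 6 such genes, 4 were tested, of which 3 were higher and 0 lower in MOE than in VNO, 1 was higher and 3 were lower in MOE than in OB, and 4 of 4 were lower in VNO than in OB (limma, adjusted p under 0.05). The shares of all genes called higher and lower were 48.6% and 34%, 45.7% and 39.3%, and 37.8% and 48% in this order. H2bu2 was at 6.85 to 14.6 FPKM in MOE and up to 67.3 in OB (log2 -2.38), H2aw at 23.9 to 61.0 in MOE and up to 108 in OB (log2 -0.88), and H4f16 at 39.7 to 76.2 in MOE, at most 26.1 in VNO and at most 65.1 in OB (log2 1.68 and 0.35). These genes lay outside the rule and are given as values.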
